A study of Homo sapiens with 6 samples.

Results

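The genes described here are the 9 that encode the main enzymes for copying, setting and removing DNA methylation and their UHRF cofactors: UHRF1, UHRF2, DNMT1, DNMT3A, DNMT3B, TET1, TET2, TET3 and TDG. They were chosen by gene name for this function, with the fold changes of the comparison below already known, and all 9 were found among the 20532 genes of the count table. Messenger RNA was sequenced with a stranded kit from MDA-MB-231 M3 cells, which are bone-metastatic and derive from MDA-MB-231, a human breast cancer line of the triple-negative kind. There were 3 libraries from cells in which an siRNA had knocked down PRMT1 (siPRMT1) and 3 libraries from control cells of the same line. PRMT1 places most of the asymmetric dimethyl marks on arginines of proteins. The labels call the controls untreated or control. They do not say whether these cells were transfected, which siRNA was used or how long after knockdown RNA was taken. The labels call the libraries biological replicates but do not say whether they came from separate cultures. P-values here therefore measure only the spread between these libraries, which may be technical.

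DNA methylation in mammals is carried mostly by cytosines that are followed by guanine (CpG sites). After replication, UHRF1 binds sites where only the old strand is methylated and brings DNMT1, which methylates the new strand. DNMT3A and DNMT3B set new methylation, while the TET enzymes oxidise methylated cytosine step by step and the glycosylase TDG cuts out the last oxidation products, which base excision repair replaces with unmethylated cytosine. Promoter methylation keeps many germline genes silent in somatic cells, and cancer genomes are known for broad loss of methylation beside gains at some promoters.

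The knocked-down gene was checked before the members. PRMT1 (ENSG00000126457, hg38 chr19:49675786-49688447, plus strand) had 193, 218 and 181 counts in the siPRMT1 libraries, against 3160, 2991 and 3072 counts in the control libraries. Its level was 11.9 ± 0.0607 CPM (counts relative to the library's total, scaled by edgeR's TMM factors) in siPRMT1 cells and 146 ± 2.93 CPM in control cells (SD, n = 3 each), a log2 fold change of -3.62 (standard error, SE, 0.0451) or 12.3-fold lower. Total counts per library ran between 16968563 and 20545995 in siPRMT1 cells and between 17921097 and 19645127 in control cells. The share of counts from the mitochondrial genome was 8.64% to 8.74% in siPRMT1 libraries, against 5.001% to 5.09% in control libraries. In edgeR's quasi-likelihood test across 13710 genes with enough counts, at a Benjamini-Hochberg adjusted p under 0.05, 89.3% of genes passed, 44.3% higher and 45.0% lower in siPRMT1 cells. In 89.1% of tested genes the 3 siPRMT1 values lay wholly above or wholly below the 3 control values. The values below are therefore described by their size. Fold changes are siPRMT1 over control. In bulk RNA, fewer cells of a kind and less RNA per cell cannot be told apart, and a CPM value is a share of all counts, not an amount per cell.

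All 9 genes had enough counts for the fit. TET1 reached that minimum only through the control libraries. Of the 9 genes 7 were lower and 1 was higher past the threshold, a count that nothing is read from because this contrast was known when the genes were chosen. Their median log2 fold change was -0.86, beside -0.0082 over all tested genes. In 4 of the 9, UHRF1, TET1, TET2 and TDG, the level was at least 2-fold lower, as it was in 21.0% of all tested genes. This count was 2 of 9 after the correction for base composition described below (9.75% of tested genes), and 7 of 9 with scaling by library size alone (29.0%). Together the 9 genes took between 155 and 161 CPM in siPRMT1 libraries, against between 337 and 347 CPM in control libraries.

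**Figure D1:**
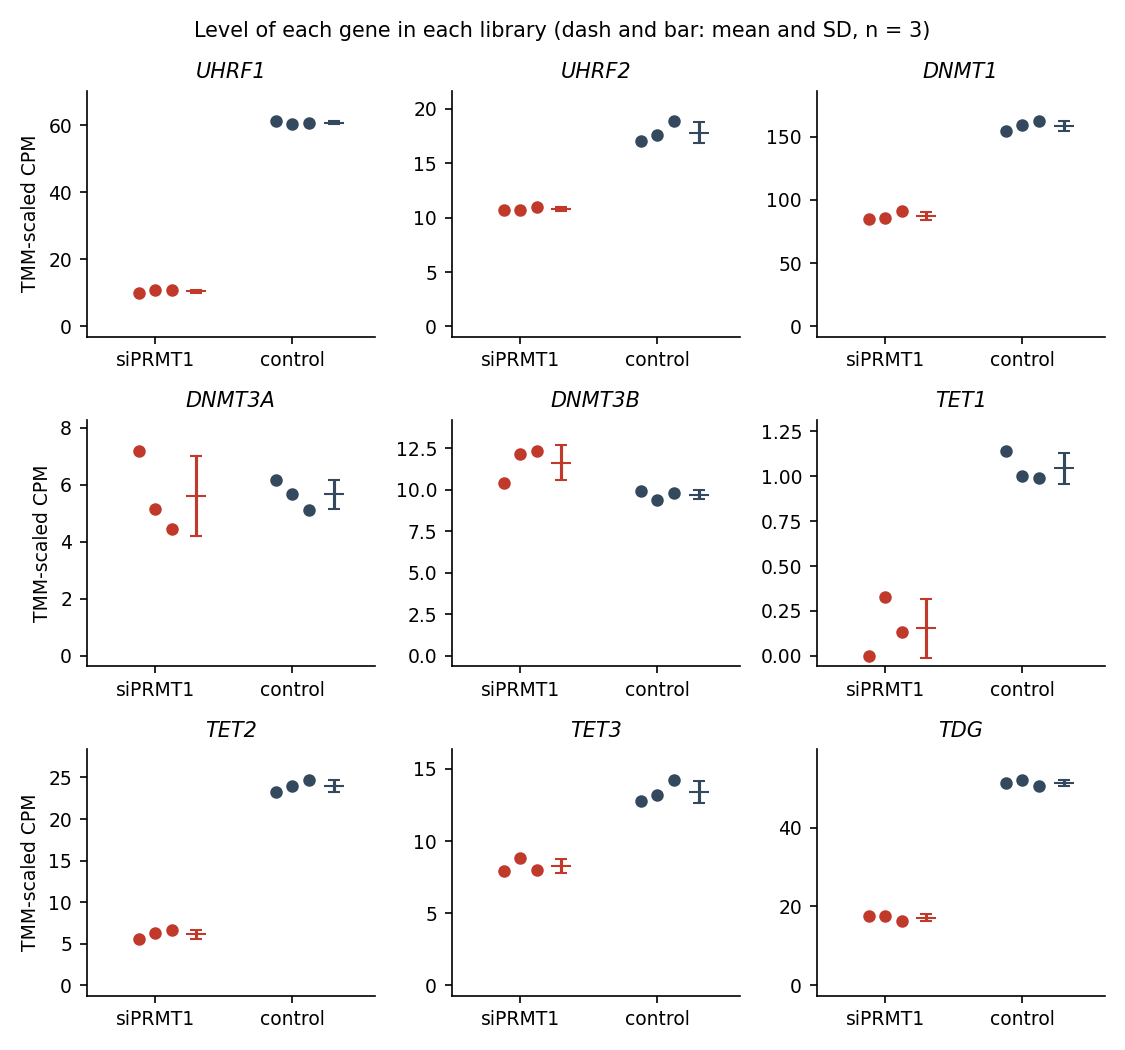
Level of each of the 9 genes in TMM-scaled CPM (vertical axes, 1 scale per gene) in the 3 siPRMT1 libraries and the 3 control libraries. Points are libraries and the dash with its bar is the mean with the SD. UHRF1 lies between 9.93 and 10.8 CPM in siPRMT1 libraries, against between 60.4 and 61.2 CPM in control libraries, while the groups overlap for DNMT3A.

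Fold changes in these libraries moved with the base composition of the transcript, and this touches every value below. Among tested genes whose canonical GENCODE transcript has a GC content under 45%, the median log2 fold change was -0.78 (5132 genes, quartiles -1.43 and -0.18). It was 0.011 for a GC content between 45% and 55% (4300 genes, quartiles -0.65 and 0.58) and 0.80 above 55% (4262 genes, quartiles 0.33 and 1.19). TDG, TET1, TET2 and UHRF2 belong to the lowest class, DNMT1, DNMT3A, DNMT3B and TET3 to the middle class, and UHRF1 to the highest class. A fit corrected for GC content and transcript length is therefore given beside each fold change and called the corrected value. In the corrected fit the median of the 9 genes was -0.80, beside -0.014 over all tested genes. Scaling by library size alone, without TMM factors, moved the median of all tested genes to -0.33 and that of the 9 genes to -1.18. The part of base composition in these differences was not tested.

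**Figure D2:**
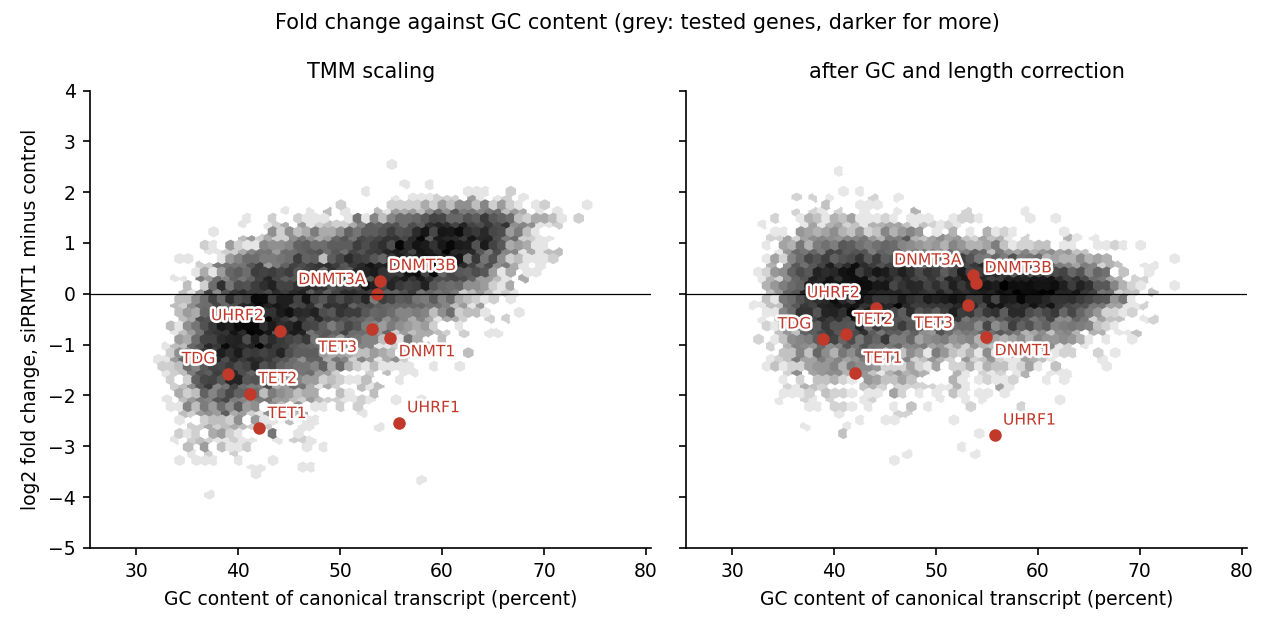
Log2 fold change (siPRMT1 minus control, vertical axis) against GC content of the canonical transcript in percent (horizontal axis) with TMM scaling on the left and after the correction for GC content and length on the right. Grey cells are all tested genes, darker where there are more, and red points are the 9 genes. UHRF1 has a GC content of 55.7% and lies below most genes of that composition in both panels, whereas TET2 lies at -1.97 on the left and at -0.80 on the right.

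The maintenance genes were lower in siPRMT1 cells, and UHRF1 most of all. UHRF1 (ENSG00000276043, hg38 chr19:4903080-4960961, plus strand, 17 exons in its canonical transcript) reads hemimethylated sites after the replication fork and recruits DNMT1. It had 160, 197 and 164 counts in siPRMT1 libraries, or 9.93, 10.7 and 10.8 CPM, against 1340, 1209 and 1291 counts in control libraries, or 61.2, 60.4 and 60.8 CPM. The groups lie far apart, and within each group the 3 libraries lie within 1 CPM of each other. The log2 fold change was -2.54 (SE 0.0564), a level 5.80-fold lower in siPRMT1 cells, and 1.99% of tested genes had a lower one. Its corrected value was -2.78 (SE 0.0515), with 0.576% of tested genes lower.

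DNMT1 (ENSG00000130816, hg38 chr19:10133342-10231286, minus strand), the maintenance methyltransferase itself, had 1373, 1575 and 1387 counts in siPRMT1 libraries, or 85.2, 85.7 and 91.1 CPM, against 3379, 3180 and 3446 counts in control libraries, or 154, 159 and 162 CPM. All siPRMT1 libraries were below all control libraries. DNMT1 averaged 87.3 ± 3.30 CPM in siPRMT1 cells and 158 ± 3.98 CPM in control cells (SD, n = 3 each), with a log2 fold change of -0.86 (SE 0.0282), 1.82-fold lower. Its corrected value of -0.84 (SE 0.0280) is almost the same. Of tested genes 24.3% had a lower fold change than DNMT1, and 12.9% had a lower corrected value. The interval of DNMT1 in the table overlaps that of S1PR2 on the same strand, a receptor gene with between 30 and 67 counts per library, and the sources used here do not say how reads within both were assigned.

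UHRF2 (ENSG00000147854, hg38 chr9:6413151-6507054, plus strand), the paralog of UHRF1 that does not replace it in maintenance, had 172, 197 and 167 counts in siPRMT1 libraries, or 10.7, 10.7 and 10.97 CPM, against 373, 352 and 401 counts in control libraries, or 17.03, 17.6 and 18.9 CPM. The siPRMT1 libraries lie closely together below the control libraries. Its log2 fold change was -0.73 (SE 0.0743), 1.65-fold lower, and -0.27 (SE 0.0735) after correction. Of tested genes 27.8% had a lower fold change than UHRF2, and 33.5% had a lower corrected value. Per kilobase of canonical transcript, UHRF1 stood at 0.891 ± 0.0332 times the level of UHRF2 in siPRMT1 cells and at 3.13 ± 0.172 times in control cells (SD, n = 3 each). This order depends on the length used, since per kilobase of the gene length in the deposited table UHRF1 stood above UHRF2 in both groups, at 2.04 and 1.09 CPM in siPRMT1 cells and at 11.8 and 1.80 CPM in control cells. DNMT1 stood at 6.17 ± 0.228 times UHRF1 per kilobase of canonical transcript in siPRMT1 cells and at 1.93 ± 0.0565 times in control cells. With the deposited length it stood at 2.79 ± 0.103 times UHRF1 in siPRMT1 cells and at 0.872 ± 0.0256 times in control cells, so the level of DNMT1 was then below that of UHRF1 in control cells.

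The promoters of both maintenance partners are shown because E2F factors, which switch on genes for DNA replication, are known to act on short GC-rich motifs near the starts of such genes. DNMT3A is shown for comparison as a member without such a motif in its windows. UHRF2, TET1, TET2, TET3 and TDG, whose levels were lower in siPRMT1 cells, also had no match in their windows. The part of the motif in these levels was not tested. The windows run from 250 bases before to 50 after the start, are from RefSeq on GRCh38.p14 and are read 5′ to 3′ along the gene. Those nearest to the start of the canonical transcript were taken, chr19:4909251-4909550 on the plus strand for UHRF1, chr19:10194904-10195203 on the minus strand for DNMT1 and chr2:25341876-25342175 on the minus strand for DNMT3A. Capitals mark a match to any of TTTCCCGC, TTTGGCGC, TTTCGCGC or TTTGCCGC on either strand.
UHRF1: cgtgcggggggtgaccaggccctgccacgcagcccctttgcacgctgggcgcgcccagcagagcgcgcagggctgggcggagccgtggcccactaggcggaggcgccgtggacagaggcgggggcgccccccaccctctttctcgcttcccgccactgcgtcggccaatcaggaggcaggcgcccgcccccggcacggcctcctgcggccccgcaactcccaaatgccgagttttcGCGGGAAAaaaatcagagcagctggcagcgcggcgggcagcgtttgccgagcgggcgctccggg
DNMT1: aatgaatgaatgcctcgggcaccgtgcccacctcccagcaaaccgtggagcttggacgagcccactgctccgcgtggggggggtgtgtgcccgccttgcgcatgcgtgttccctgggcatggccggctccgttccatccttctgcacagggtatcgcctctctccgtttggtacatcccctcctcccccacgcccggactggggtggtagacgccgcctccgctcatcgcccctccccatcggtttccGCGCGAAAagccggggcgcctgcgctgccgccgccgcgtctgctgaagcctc
DNMT3A: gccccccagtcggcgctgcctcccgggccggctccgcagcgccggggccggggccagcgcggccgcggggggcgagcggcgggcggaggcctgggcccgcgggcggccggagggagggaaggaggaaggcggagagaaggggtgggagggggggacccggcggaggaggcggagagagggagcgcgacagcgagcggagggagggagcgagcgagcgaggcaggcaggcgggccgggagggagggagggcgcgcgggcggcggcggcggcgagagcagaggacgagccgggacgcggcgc

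The UHRF1 window holds GCGGGAAA beginning 14 bases before the start, and the DNMT1 window holds GCGCGAAA beginning 2 bases before it. A neighbouring UHRF1 window, at chr19:4909894-4910193, also holds a match, TTTCGCGC. In all, 3 of the 20 windows of the 9 genes had a match, and these belong to UHRF1 and DNMT1. The only window of DNMT3B lies 17467 bases from the start of its canonical transcript, so the promoter at that start was not searched. Of all 35116 windows in the RefSeq table, 1164 or 3.31% had one. The 3 printed windows hold 36, 30 and 46 CpG sites in the order shown, against a median of 14 over all windows. A match of letters is not a binding site, and a window without one says nothing of the factor.

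Under TMM scaling the de novo methyltransferases did not share the lower level. DNMT3A (ENSG00000119772, hg38 chr2:25227855-25342489, minus strand) had 116, 95 and 68 counts in siPRMT1 libraries, or 7.20, 5.17 and 4.47 CPM, against 135, 114 and 109 counts in control libraries, or 6.16, 5.70 and 5.13 CPM. The siPRMT1 libraries lie on both sides of the control libraries and spread more widely. The log2 fold change was -0.015 (SE 0.116), and leaving out 1 library at a time gave between -0.23 and 0.11. It was 0.37 (SE 0.127) after correction and -0.33 with scaling by library size alone, so the data give no stable direction for DNMT3A.

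DNMT3B (ENSG00000088305, hg38 chr20:32762385-32808280, plus strand) was the only member with a higher level in siPRMT1 cells under TMM scaling. It had 168, 223 and 188 counts in siPRMT1 libraries, or 10.4, 12.1 and 12.4 CPM, against 218, 188 and 208 counts in control libraries, or 9.95, 9.40 and 9.79 CPM. The lowest siPRMT1 library lies just above the highest control library. The log2 fold change was 0.26 (SE 0.0841), a level 1.20 times that of control cells. It was 0.22 (SE 0.0838) after correction and -0.057 with scaling by library size alone, so its direction depends on the scaling.

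DNMT1 made up most of the methyltransferase transcripts in both groups, and less so in siPRMT1 cells. Of the summed level of the 3 methyltransferases per kilobase of canonical transcript, DNMT1 held 83.5 ± 0.490% in siPRMT1 cells and 91.4 ± 0.447% in control cells (SD, n = 3 each). DNMT3B held 13.5 ± 0.957% in siPRMT1 cells and 6.81 ± 0.282% in control cells. DNMT3A held 3.02 ± 0.848% in siPRMT1 cells and 1.83 ± 0.205% in control cells. The ratio of DNMT3B to DNMT3A ran between 3.15 and 6.01 in siPRMT1 libraries and between 3.51 and 4.15 in control libraries, which overlap. These shares and ratios depend on the length used. Per kilobase of the deposited gene length, DNMT1, DNMT3B and DNMT3A stood at 5.68, 1.69 and 0.407 CPM in siPRMT1 cells. In control cells they stood at 10.3, 1.41 and 0.411 CPM.

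The genes for removal of methylation were all lower in siPRMT1 cells, with sizes that depend on the correction. TET2 (ENSG00000168769, hg38 chr4:105145875-105279816, plus strand), a dioxygenase best known for its loss in blood cancers, had 89, 115 and 101 counts in siPRMT1 libraries, or 5.52, 6.25 and 6.63 CPM, against 510, 480 and 524 counts in control libraries, or 23.3, 24.0 and 24.7 CPM. No siPRMT1 library came near the control libraries. The log2 fold change was -1.97 (SE 0.0800), 3.90-fold lower, and 5.41% of tested genes had a lower one. Its corrected value was -0.80 (SE 0.0836), with TET2 at a GC content of 41.2% and a canonical transcript of 9589 bases. After correction 13.9% of tested genes had a lower value.

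TET3 (ENSG00000187605, hg38 chr2:73984910-74108177, plus strand), the TET enzyme of the fertilised egg in mice that is also widely expressed in somatic cells, had 128, 162 and 122 counts in siPRMT1 libraries, or 7.94, 8.81 and 8.01 CPM, against 280, 264 and 302 counts in control libraries, or 12.8, 13.2 and 14.2 CPM. The groups do not overlap, but they lie closer together than for TET2. The log2 fold change was -0.69 (SE 0.0850), 1.62-fold lower, and -0.22 (SE 0.0850) after correction. Of tested genes 28.7% had a lower fold change than TET3, and 37.0% had a lower corrected value.

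TET1 (ENSG00000138336, hg38 chr10:68560337-68694487, plus strand), the TET enzyme known best from embryonic stem cells, was near the limit of detection. It had 0, 6 and 2 counts in siPRMT1 libraries, or 0, 0.326 and 0.131 CPM, against 25, 20 and 21 counts in control libraries, or 1.14, 0.999 and 0.988 CPM. The count of 0 allows up to 0.186 CPM in that library, taking 3 counts as the limit and counting error only. The fitted log2 fold change was -2.65 (SE 0.432), the largest in size of the 9 under TMM scaling. It rests on these few reads and lay between -3.90 without siPRMT1 replicate 2 and -2.11 without siPRMT1 replicate 1. The corrected value was -1.56 (SE 0.473).

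The TET family as a whole had 217, 283 and 225 counts in siPRMT1 libraries, against 815, 764 and 847 counts in control libraries, and its summed level was 14.5 ± 0.986 CPM in siPRMT1 cells and 38.4 ± 1.34 CPM in control cells (SD, n = 3 each). Its make-up differed as well. Per kilobase of canonical transcript, TET2 held 47.7 ± 2.42% of the family in siPRMT1 cells and 67.2 ± 0.445% in control cells. TET3 held 51.1 ± 2.45% in siPRMT1 cells and 29.8 ± 0.646% in control cells. TET1 held 1.13 ± 1.20% in siPRMT1 cells and 2.92 ± 0.327% in control cells. TET2 and TET3 differ in GC content (41.2% and 53.2%), and the part of base composition in these shares was not tested. The shares also depend on the length used. Per kilobase of the deposited gene length, TET2 and TET3 stood at 0.373 and 0.635 CPM in siPRMT1 cells and at 1.46 and 1.03 CPM in control cells.

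**Figure D3:**
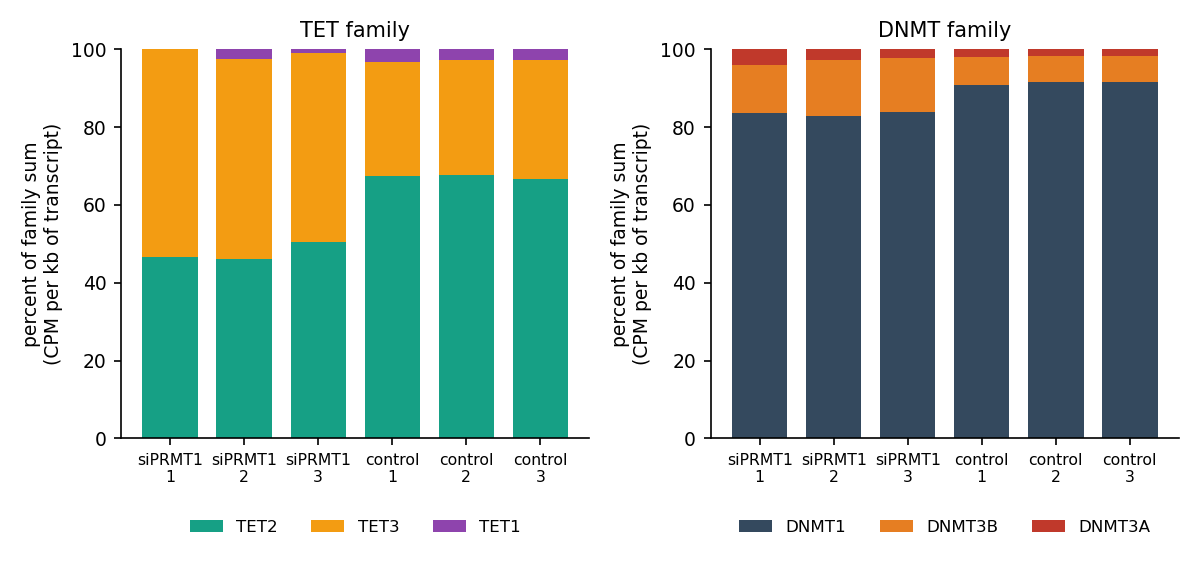
Share of each enzyme in the summed level of its family (percent of CPM per kilobase of canonical transcript, vertical axes) in each library, for the TET family on the left and the DNA methyltransferases on the right. TET2 holds 47.7% on average in siPRMT1 libraries and 67.2% in control libraries, and DNMT3B holds 13.5% in siPRMT1 libraries and 6.81% in control libraries.

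TDG (ENSG00000139372, hg38 chr12:103965822-103987057, plus strand), the glycosylase that excises oxidised methylcytosine, had 285, 324 and 247 counts in siPRMT1 libraries, or 17.7, 17.6 and 16.2 CPM, against 1125, 1040 and 1071 counts in control libraries, or 51.4, 52.0 and 50.4 CPM. The groups are well apart and each is tight. The log2 fold change was -1.57 (SE 0.0519), 2.98-fold lower, and -0.89 (SE 0.049995) after correction. TDG has the lowest GC content of the 9 transcripts, 38.96%.

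**Figure D4:**
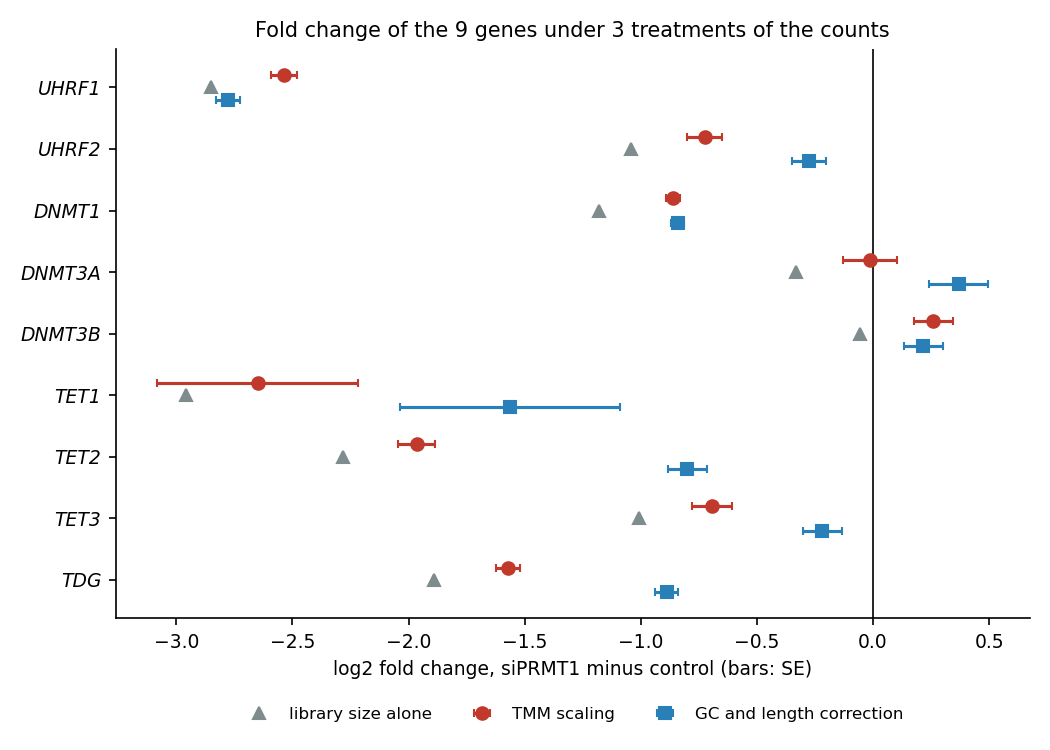
Log2 fold change of the 9 genes (horizontal axis, siPRMT1 minus control) with library size alone (grey triangles), with TMM scaling (red circles) and after the correction for GC content and length (blue squares), with bars for the SE of the circles and squares. UHRF1 lies below -2.5 in all 3, DNMT3B is at 0.26, 0.22 and -0.057 with TMM scaling, correction and library size alone, and TET2, TET1 and TDG come closer to 0 after correction.

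Levels can be set in order only per length. Per kilobase of canonical transcript, DNMT1 was highest in both groups, at 16.6 ± 0.625 CPM in siPRMT1 cells and 30.0 ± 0.755 CPM in control cells (SD, n = 3 each). In siPRMT1 cells TDG came next at 5.40 ± 0.259 CPM, then UHRF2 at 3.02 ± 0.0453 CPM, UHRF1 at 2.69 ± 0.121 CPM and DNMT3B at 2.68 ± 0.243 CPM. UHRF1 and DNMT3B overlap there, as do TET3 at 0.685 ± 0.0400 CPM, TET2 at 0.640 ± 0.0590 CPM and DNMT3A at 0.595 ± 0.150 CPM. In control cells TDG at 16.1 ± 0.249 CPM and UHRF1 at 15.6 ± 0.0963 CPM followed DNMT1, and their ranges do not overlap but are close. UHRF2 at 4.99 ± 0.264 CPM, TET2 at 2.5003 ± 0.0719 CPM, DNMT3B at 2.24 ± 0.0659 CPM, TET3 at 1.11 ± 0.0611 CPM and DNMT3A at 0.601 ± 0.0549 CPM came after them. TET1 was last in both groups, at 0.0159 CPM in siPRMT1 cells and 0.109 CPM in control cells. The length decides part of this order. Per kilobase of the gene length in the deposited table, which joins the exons of all transcripts, UHRF1 led in control cells at 11.8 CPM, before TDG at 10.5 CPM and DNMT1 at 10.3 CPM, with the last 2 overlapping.

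Genes around the pathway were counted in lists. Of 8 genes of the protein families that bind methylated CpG sites, all tested, 2 rose, 2 fell and 4 did not pass (median log2 fold change -0.018, corrected 0.055). ZBTB38, a zinc finger reader that represses transcription, fell to 11.3 CPM in siPRMT1 cells, against 93.8 CPM in control cells (log2 fold change -3.05, corrected -1.93). ZBTB33, which encodes the reader Kaiso, fell to 11.8 CPM in siPRMT1 cells, against 31.2 CPM in control cells (-1.41, corrected -0.27). MBD3, a subunit of the NuRD complex that in mammals does not itself read methylated CpG, rose to 239 CPM in siPRMT1 cells, against 134 CPM in control cells (0.83, corrected 0.49). MBD2, which reads methylated CpG for that complex, had 52.3 CPM in siPRMT1 cells and 40.5 CPM in control cells (0.37, corrected 1.00), but only 0.051 with library size alone, where it no longer passed. The adjusted p of these 4 genes was 2.667e-17 or smaller in edgeR's quasi-likelihood test. Over the genes of the following lists that are named as risen or fallen it was 1.015e-06 or smaller, apart from MAT2A.

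Of 16 partners of maintenance and de novo methylation, 13 were tested, of which 5 rose and 8 fell (median -0.35, corrected -0.021). HELLS, the chromatin remodeller needed for methylation of heterochromatin, fell to 9.89 CPM in siPRMT1 cells, against 32.4 CPM in control cells (log2 fold change -1.72, corrected -1.03). SETD2, which writes the histone mark that guides de novo methylation to gene bodies, fell to 20.9 CPM in siPRMT1 cells, against 55.4 CPM in control cells (-1.40, corrected -0.41). TRIM28, the corepressor of zinc finger proteins at retroelements, rose to 411 CPM in siPRMT1 cells, against 189 CPM in control cells (1.12, corrected 0.38). The deacetylase gene HDAC1 rose to 260 CPM in siPRMT1 cells, against 171 CPM in control cells (0.61, corrected 0.35). DPPA3, a maternal factor that keeps UHRF1 from chromatin, had no count in any library.

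Of 9 partners and cofactor enzymes of the TET proteins, 2 rose, 6 fell and 1 did not pass (median -0.92, corrected -0.35). After correction 0 were higher and 8 lower past the threshold, beside 5438 higher and 5578 lower of 13710 tested genes. The corrected counts, higher and lower, were 4 and 4 for the methyl-CpG binding families and 5 and 6 for the methylation partners. For the lists below they were 6 and 6 (base excision repair), 2 and 5 (methyl donor supply), 4 and 2 (germline) and 5 and 10 (S phase). OGT, the glycosyltransferase that binds TET proteins, fell to 33.0 CPM in siPRMT1 cells, against 102 CPM in control cells (log2 fold change -1.63, corrected -0.78). QSER1, which together with TET1 keeps de novo methylation off some promoters of human embryonic stem cells, fell to 16.7 CPM in siPRMT1 cells, against 50.3 CPM in control cells (-1.59, corrected -0.35). IDH1, whose product 2-oxoglutarate TET enzymes use, fell to 64.7 CPM in siPRMT1 cells, against 108 CPM in control cells (-0.74, corrected -0.46).

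Of 13 genes listed around base excision repair after TET and TDG, 12 were tested, of which 6 rose, 4 fell and 2 did not pass (median 0.16, corrected -0.070, and -0.16 with library size alone). The list includes GADD45 genes, which do not encode repair enzymes. GADD45B was among the risen (0.74, corrected -0.32) and GADD45A among the fallen (-0.57, corrected -1.19), while GADD45G was not tested. The abasic site nuclease gene APEX1 rose to 241 CPM in siPRMT1 cells, against 125 CPM in control cells (log2 fold change 0.95, corrected 0.41). XRCC1, the repair scaffold, rose to 26.2 CPM in siPRMT1 cells, against 12.4 CPM in control cells (1.08, corrected 0.19). SMUG1, another glycosylase, rose to 27.9 CPM in siPRMT1 cells, against 14.3 CPM in control cells (0.96, corrected 0.80). The break sensor gene PARP1 fell to 64.4 CPM in siPRMT1 cells, against 112 CPM in control cells (-0.79, corrected -0.60).

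Methylation draws its methyl groups from S-adenosylmethionine. Of 11 genes listed around its supply and clearance 9 were tested, of which 1 rose, 6 fell and 2 did not pass (median -0.67, corrected -0.39). MAT2B, the regulatory subunit of the enzyme that makes it, fell to 33.1 CPM in siPRMT1 cells, against 120 CPM in control cells (log2 fold change -1.86, corrected -1.50). MAT2A, the catalytic subunit, was also among the 6 but hardly moved (-0.073, adjusted p 0.00077 in edgeR's quasi-likelihood test). After correction MAT2A was higher (0.13). AHCYL1 fell to 96.3 CPM in siPRMT1 cells, against 178 CPM in control cells (-0.89, corrected -0.53), and AHCYL2 to 23.0 CPM in siPRMT1 cells, against 49.1 CPM in control cells (-1.09, corrected -0.52). Both were listed only as relatives of AHCY, the hydrolase that clears the by-product of methylation, so their levels do not measure that clearance. AHCY itself had 172 CPM in siPRMT1 cells and 127 CPM in control cells (0.44), and the correction turned its direction (-0.21). BHMT2 had no count in any library.

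**Figure D5:**
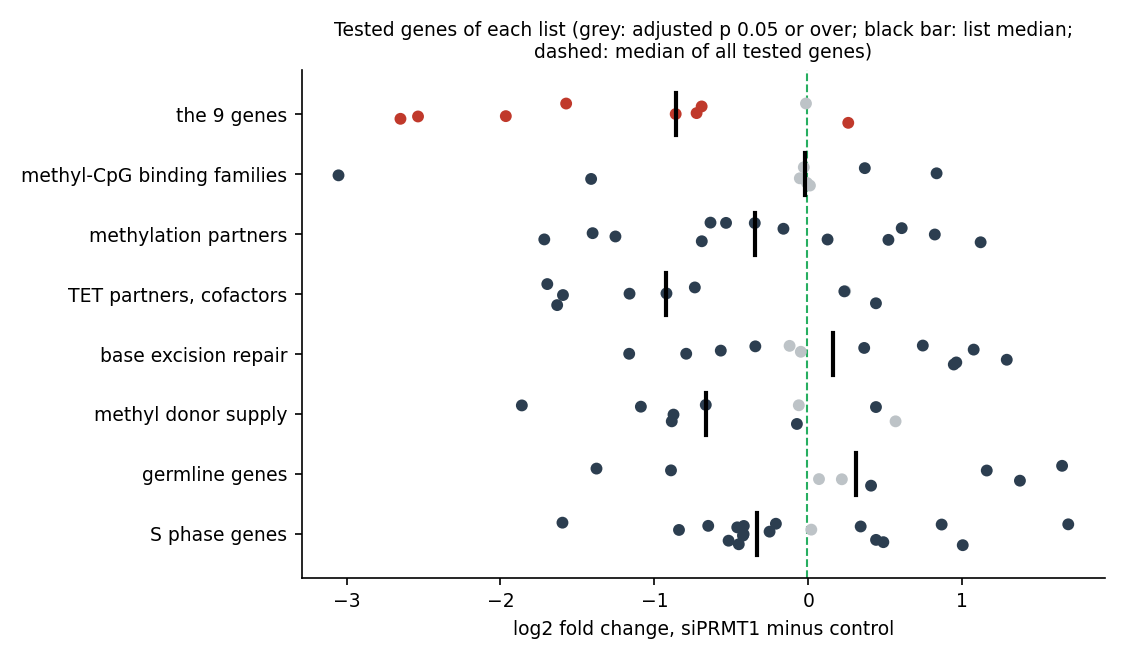
Log2 fold change (siPRMT1 minus control, horizontal axis) of each tested gene of the 8 lists. Coloured points passed the adjusted threshold, grey points did not, black bars are list medians and the dashed line is the median of all tested genes at -0.0082. The 9 methylation genes have a median of -0.86, the TET partners one of -0.92 and the methyl-CpG binding families one of -0.018.

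Germline genes that promoter methylation keeps silent in somatic cells were listed because they are often read out when methylation is lost. Of 23, only 8 had enough counts to be tested, of which 4 rose, 2 fell and 2 did not pass (median log2 fold change 0.31, corrected 0.41, and -0.0027 with library size alone). Their summed level over all 23 was between 28.4 and 30.8 CPM in siPRMT1 libraries, against between 18.9 and 21.6 CPM in control libraries. Nearly all of the difference between these sums lay in SYCP3 and SSX1, so it is not a broad rise of the list. SYCP3, a protein of the meiotic chromosome axis, rose to 9.65 CPM in siPRMT1 cells, against 4.28 CPM in control cells (1.16, corrected 1.29). SSX1 rose to 7.12 CPM in siPRMT1 cells, against 2.73 CPM in control cells (1.38, corrected 1.02), and PAGE2 to 1.22 CPM in siPRMT1 cells, against 0.378 CPM in control cells (1.65, corrected 1.42). PAGE2 had 19, 18 and 23 counts in siPRMT1 libraries, against 8, 5 and 11 counts in control libraries. It reached the minimum for the fit only through the siPRMT1 libraries, so nothing is read from its rise. MAGEC2 fell to 1.11 CPM in siPRMT1 cells, against 2.88 CPM in control cells (-1.38, corrected -1.58). SSX1, PAGE2 and MAGEC2 are cancer-testis genes of families with near-identical copies, so their counts are uncertain. DAZL, TDRD1, TEX101, MAGEA4 and TKTL1 had no count in any library. DNA methylation itself was not measured in these libraries.

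UHRF1 and DNMT1 are expressed mainly in cycling cells, so 18 genes of S phase are given beside them. Of these 6 rose, 11 fell and 1 did not pass (median log2 fold change -0.33, corrected -0.11), and their summed level was between 1430 and 1433 CPM in siPRMT1 libraries, against between 1637 and 1645 CPM in control libraries. CDT1, which licenses replication origins, rose to 54.1 CPM in siPRMT1 cells, against 16.8 CPM in control cells (1.69, corrected 0.79). MCM5, a subunit of the replicative helicase, rose to 79.9 CPM in siPRMT1 cells, against 43.8 CPM in control cells (0.87, corrected 0.50). The cyclin gene CCNE2 fell to 11.98 CPM in siPRMT1 cells, against 36.4 CPM in control cells (-1.60, corrected -0.74). RRM2, a subunit of ribonucleotide reductase, fell to 102 CPM in siPRMT1 cells, against 160 CPM in control cells (-0.65, corrected -0.14). The part of the cell cycle in the levels of UHRF1 and DNMT1 was not tested.

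The labelled line was checked against its markers. The mesenchymal marker VIM had 2368 CPM in siPRMT1 cells and 1817 CPM in control cells (log2 fold change 0.38, corrected -0.19). CD44, often high in such cells, had 703 CPM in siPRMT1 cells and 1156 CPM in control cells (-0.72, corrected 0.0058). KRT8 had 1507 CPM in siPRMT1 cells and 526 CPM in control cells (1.52, corrected 0.49), and KRT18, its partner keratin, had 901 CPM in siPRMT1 cells and 255 CPM in control cells (1.82, corrected 0.72). Of the 10 genes listed for this check 8 were tested, of which 5 rose, 2 fell and 1 did not pass, and 3 rose and 3 fell after correction. The list mixes markers of the line with receptor and epithelial genes, so these counts do not measure its identity. The hormone receptor genes ESR1 and PGR, which triple-negative tumours lack, had at most 3 counts in any library. ERBB2, the other receptor gene used to define such tumours, was detected. It had between 70.0 and 74.9 CPM in siPRMT1 libraries and between 59.9 and 63.5 CPM in control libraries (0.25, corrected -0.15). EPCAM rose (0.80, corrected 0.63), GATA3 fell (-0.70, corrected -0.96) and CDH1 did not pass (-0.20, corrected 0.21). Receptor status was not tested. Of 11 markers of other cell types 8 were too low to be tested, among them the leukocyte marker PTPRC with 0, 1 and 0 counts in siPRMT1 libraries and 4, 3 and 3 counts in control libraries. Of the 3 tested, 2 rose. The macrophage marker CD68, which many tumour cells also express, had 372 CPM in siPRMT1 cells and 201 CPM in control cells (log2 fold change 0.89, but 0.038 and not past the threshold after correction), and the bone gene BGLAP had 3.96 CPM in siPRMT1 cells and 1.11 CPM in control cells (1.83, corrected 0.55). The endothelial marker PECAM1 did not pass (-0.070), but did after correction (0.48). Summed over all 11, these markers took between 393 and 398 CPM in siPRMT1 libraries, against between 221 and 226 CPM in control libraries. Most of both sums was CD68 alone, at 372 and 201 CPM. The part of these markers in the levels of the 9 genes was not tested.

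The genes with the most similar pattern were found by the root mean square distance of centred log2 CPM over the 6 libraries. For TET1, which had the largest fold change in size under TMM scaling with all libraries (UHRF1 had it after correction, and without siPRMT1 replicate 1 or 3), they were an unnamed gene (ENSG00000291303) at a distance of 0.227, GPR75 at 0.279, ITGB8 at 0.304, a further unnamed gene (ENSG00000279983) at 0.325 and TMPRSS2 at 0.339. For UHRF1, looked at after its values were seen, they were FSIP1 at 0.0155, NUP153 at 0.0224, EVI5 at 0.0252, PHC3 at 0.0359 and ZBTB20 at 0.0385. With only 2 groups, such closeness says little more than that the fold changes are alike.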

How the data were processed

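The deposited table held raw counts, whole numbers of reads for each of 20532 genes, with hg38 coordinates, per the file headers. STAR 2.7.6a, fastp 0.23.2, Subread 1.5.1, featureCounts and edgeR 3.40.2 are named in the submitters' processing notes without their roles. The annotation release, the strand setting and the handling of duplicates are not stated there.

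Counts were tested with edgeR 4.0.16 under R 4.3.3 (scaling by TMM, filterByExpr, quasi-likelihood fit and test, Benjamini-Hochberg adjustment over 13710 genes, two-sided). Each SE is the fold change divided by the root of its F statistic. The common dispersion was 9.77e-05, the lowest value edgeR allows. Replicates were compared pair by pair with a chi-square test of their counts, and the statistic divided by its degrees of freedom was between 1.045 and 1.383, so no library was dropped. The corrected fit removed splines with 5 degrees of freedom on GC content and on length, taken from GENCODE release 44, with each library's median kept. It covered 13694 tested genes. Other alternatives were DESeq2 1.42.0, limma-voom (limma 3.58.1), robust estimation, scaling by RLE, by the upper quartile or by library size alone, no filter, a filter of at least 1 CPM in 3 libraries, a replicate block and leaving out each library. Promoters were searched in Python 3.11.15. The fit and the correction were tried on simulated counts, drawn with a higher dispersion than these libraries have. The correction was tried there on a GC trend alone, without a length trend. These trials do not show how well it works on these libraries.

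The members and lists were chosen with earlier results of these data known. All members, PRMT1, up to 4 genes per list with the smallest adjusted p, and genes without counts are named, as are the 5 nearest patterns. Further cell markers are named in the check of the line, and MAT2A and the GADD45 genes with their lists. A few genes under this rule are not reported here.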

Additional observations from a re-analysis of the deposited data

How the results depend on the processing

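Over all tested genes, 12243 passed (6078 higher and 6165 lower in siPRMT1 cells), and the other scalings, tools and filters gave between 11016 (GC and length correction, 5438 higher and 5578 lower) and 12532 (no filter). Library size alone gave 4588 higher and 7593 lower, a share of 37.7% higher against 49.6%, and shifted the median of all genes by -0.317. Leaving out 1 library gave between 12069 and 12159 genes, and 7 lower and 1 higher of the 9 methylation genes each time.

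Of the 9 genes, 0 were higher past the threshold with library size alone and 2, DNMT3B and DNMT3A, after the correction. DNMT3A thus passed in opposite directions, as lower with library size alone (-0.33) and as higher after the correction (0.37). DNMT3B turned to -0.057 with library size alone. AHCY turned to -0.21, ERBB2 to -0.15, GADD45B to -0.32, MAT2A to 0.13, CD44 to 0.0058 and VIM to -0.19 after the correction. CDH1 and PECAM1, which had not passed, turned as well. So did some list genes that are not named here, in both directions. The cause was not tested.

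Replicate numbers are shared between the groups in the labels, but same-numbered libraries did not deviate together (correlations of -0.033, -0.032 and -0.0072 over 8039 genes). Replicates differed little beyond counting error (chi-square per degree of freedom between 1.045 and 1.383). This check therefore cannot exclude that same-numbered samples shared a culture or batch. With the replicate block 12219 genes passed, 6063 higher and 6156 lower.

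Depth limits TET1 most, with 8 counts in all siPRMT1 libraries. DNMT3A had between 68 and 116 counts per siPRMT1 library.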
